A study of Drosophila melanogaster with 10 samples.

Results

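Polycomb and Trithorax group genes encode the chromatin proteins that hold developmental genes in a silent or an active state through cell divisions. Described here are 33 such genes of Drosophila melanogaster, 16 on the Polycomb side and 17 on the Trithorax side. They were chosen by name as known members of the complexes, by a rule that uses no measured value, out of 17895 gene rows in the deposited table. All 33 names were found, and all 33 passed the filter on low counts that left 10749 genes for testing. RNA was measured by bulk RNA-seq in whole brains dissected from larvae of the third instar. The 4 vostok libraries came from larvae labelled only with that name, which the series title and the column names tie to CG11504. The labels name no allele, driver or parental strain for them. The 4 control libraries came from larvae labelled as control, whose column names begin with yw. The series sets the mutant against control to ask what the gene does for chromatin organization and for transcription. The Micro-C data of the series, 2 vostok libraries that map chromosome contacts, were not analysed here.

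Polycomb repressive complex 1 (PRC1) binds chromatin that carries methylated lysine 27 of histone H3, compacts it and ubiquitylates histone H2A. Polycomb repressive complex 2 (PRC2) places the methyl mark, and the Pho repressive complex (PhoRC) brings the machinery to its DNA elements. Trithorax group proteins work against this silencing as histone methyltransferases, as an H3 lysine 27 demethylase and as ATP-driven nucleosome remodelers. In the larval brain of Drosophila both groups are known for their parts in neuroblast identity, neuroblast survival and the Hox pattern of the nerve cord.

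Levels are given as CPM, estimated counts scaled to a common library size that was corrected for composition, as mean ± SD over the 4 libraries of a group. A count grows with transcript length and no exon lengths were at hand, so levels are compared between groups and never between genes. Changes are log2 fold changes of vostok over control ± SE from the quasi-likelihood test of edgeR, and a gene was called when its Benjamini-Hochberg adjusted p over all 10749 genes was below 0.05. Nothing in the labels says whether repeats are separate pools of larvae, so p-values refer to the spread among these libraries only, and part of it may be technical. Totals per library ran from 57613848 to 81796126 estimated counts, and 3 counts equal 0.0371 to 0.0519 CPM. Member means over all 8 libraries ran from 16.3 to 1272 CPM, all far above that floor.

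The checks of the labels came out as follows. CG11504 (FBgn0039733) was at 73.6 ± 1.93 CPM in vostok and 60.1 ± 4.99 CPM in control libraries (log2 fold change 0.29 ± 0.06, adjusted p = 0.0143), and the omission of vostok replicate 3 ended the call (0.0531). RNA of the gene was thus not lower in the libraries labelled vostok. With the allele undescribed, its level cannot check which libraries are mutant. The pigment gene y was at 123 ± 19.6 CPM in vostok and 0.846 ± 0.136 CPM in control libraries. It was low in all 4 columns named yw, the direction that name gives, and the mutation cannot be told apart from the genetic background of the control strain. Markers of neurons, neuroblasts and glia were present in every library, as the tissue label requires, with 0 of them at 0 in any library. Control replicates 1 and 3 stood apart: they held less neuronal RNA and more cell cycle RNA than the other libraries, and the calls below are also given without them. Hemocyte markers summed to 9287 CPM in control replicate 3, 3453 CPM in control replicate 1 and 3146 CPM in control replicate 4. Leaving out control replicates 1 and 3 therefore keeps a control library with about as much hemocyte RNA as control replicate 1.

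Few of the 33 genes differed between vostok and control brains. Iswi, the ATPase of several nucleosome-spacing remodelers, was higher in vostok, and esc, a core subunit of PRC2, was lower, with means at 1.15 and 0.856 times the control mean. These 2 calls make up 6.06% of the members, against 28.3% of all tested genes (12.1% higher and 16.2% lower) and 25.0% of tested genes with a mean of at least 10 CPM. The other 31 members did not pass the test. Their differences were bounded: the 95% intervals of all 33 log2 fold changes lay within a 2-fold change in either direction, and those of 29 lay within 1.5-fold. The exceptions to the narrower bound were ph-p, Su(z)2, kis and tna, and the highest upper bound was 0.79 for Su(z)2. Most genes met the same bounds: of 7243 tested genes of at least 10 CPM, 6219 had intervals within 2-fold and 5102 within 1.5-fold. An interval that crosses 0 does not show that a gene was unchanged.

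**Figure D1:**
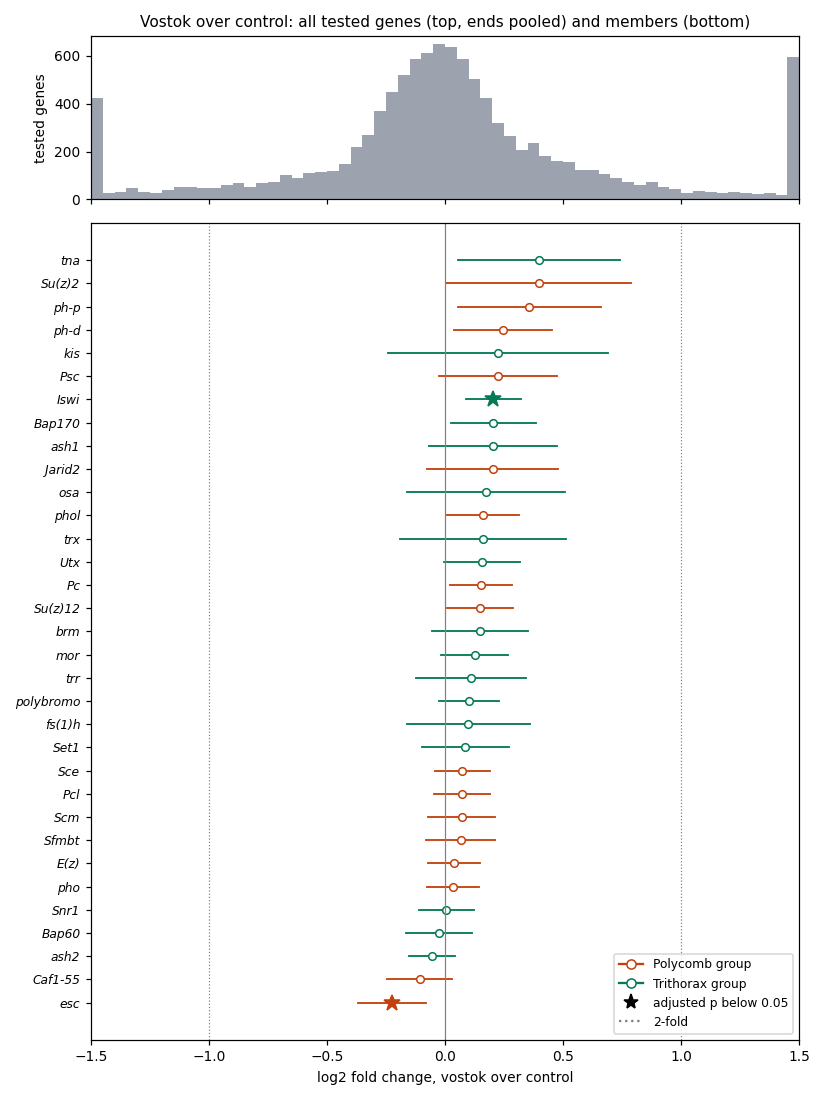
Log2 fold change of vostok over control for all 10749 tested genes as a histogram (top; values beyond the axis are pooled in the end bars) and for the 33 members, in order of size, with 95% intervals (bottom; lines in one colour for Polycomb and another for Trithorax group genes). Only Iswi and esc carry the star of an adjusted p below 0.05, and no interval reaches the dotted 2-fold lines.

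Most members leaned the same way. The log2 fold change was above 0 for 29 members and below 0 for 4 (esc, Caf1-55, ash2 and Bap60), whereas 48.8% of all tested genes were above 0. The median over members was 0.15, against -0.01 over all tested genes, and the range was -0.22 to 0.40. The median was 0.07 without control replicate 1 alone and 0.08 with voom. At an unadjusted p below 0.05 there were 10 of the 33 members, 9 higher and 1 lower. Among all 10749 tested genes there were 4855, a larger share, with 2157 higher and 2698 lower. The count of positive members stayed at 29 with each other scaling tried and was 26 with control replicates 1 and 3 left out, where the median was 0.06 and no member passed. The 4 vostok and 4 control levels did not overlap for 3 members, Iswi and Utx (higher) and esc (lower), which is 9.09% of members against 33.2% of all tested genes.

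PRC1 members had the highest median of the Polycomb side, 0.23. Of the 6, 0 passed the edgeR test, 4 had an unadjusted p below 0.05 and DESeq2 called 3. Of all genes that each tested, edgeR called 28.3% and DESeq2 40.4%. With edgeR, 4855 of all 10749 tested genes had an unadjusted p below 0.05. Pc, the chromodomain protein that reads methylated H3 lysine 27, was at 50.4, 48.8, 50.5 and 51.1 CPM in vostok, against 43.3, 49.6, 42.5 and 45.2 CPM in control libraries (means 50.2 ± 1.001 CPM in vostok and 45.2 ± 3.18 CPM in control libraries, log2 fold change 0.15 ± 0.06, adjusted p = 0.0788). Control replicate 2 alone lay inside the vostok range. The polyhomeotic genes ph-p and ph-d are neighbouring copies on the X chromosome (2126210 to 2138371 and 2115727 to 2123286, Release 6) whose SAM domain proteins polymerise within PRC1. ph-p was at 365, 337, 351 and 405 CPM in vostok, against 227, 348, 262 and 301 CPM in control libraries (means 364 ± 29.3 CPM in vostok and 284 ± 52.1 CPM in control libraries, log2 fold change 0.36 ± 0.13, adjusted p = 0.0735). ph-d was at 166, 149.7, 152.1 and 175 CPM in vostok, against 117, 152.4, 132 and 140.5 CPM in control libraries (means 161 ± 11.99 CPM in vostok and 136 ± 14.7 CPM in control libraries, log2 fold change 0.24 ± 0.09, adjusted p = 0.0739). For both genes control replicates 1, 3 and 4 lay below every vostok library while control replicate 2 did not. Reads shared by these related copies can be assigned to either, so their separate levels are uncertain. How much sequence the copies share was not examined.

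Psc and Su(z)2, another pair of related neighbours, lie on 2R and encode RING finger proteins that partner the ubiquitin ligase Sce. Psc was at 205, 194, 201 and 228 CPM in vostok, against 147, 210.2, 169.7 and 182 CPM in control libraries (means 207 ± 14.4 CPM in vostok and 177 ± 26.3 CPM in control libraries, log2 fold change 0.22 ± 0.11, adjusted p = 0.142). Su(z)2 was at 98.2, 87.7, 102 and 107 CPM in vostok, against 51.7, 94.1, 71.5 and 82.4 CPM in control libraries (means 98.6 ± 8.16 CPM in vostok and 74.9 ± 18.01 CPM in control libraries, log2 fold change 0.40 ± 0.17, adjusted p = 0.108). Here too control replicate 2 was the only control library within the vostok range, and control replicate 1 was the lowest of the 8. Sce itself was at 59.8 ± 2.65 CPM in vostok and 56.8 ± 2.20 CPM in control libraries (0.07 ± 0.05, adjusted p = 0.278), with overlapping groups. Summed over the 6 genes, PRC1 RNA was 880 to 1028 CPM in vostok and 644 to 914 CPM in control libraries.

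PRC2 held the one call of the Polycomb side, and 1 of 6 members fell (16.7%, against 16.2% of all tested genes lower). esc (FBgn0000588, 2L, 11827204 to 11829405), the WD40 subunit that binds the methyl mark and stimulates the enzyme, was at 14.8, 14.2, 14.9 and 16.3 CPM in vostok, against 18.6, 16.9, 17.7 and 17.2 CPM in control libraries. Every vostok library was below every control library, with means of 15.1 ± 0.904 and 17.6 ± 0.707 CPM (log2 fold change -0.22 ± 0.06, adjusted p = 0.0338). That call was kept without vostok replicate 4 (0.0299) and without control replicate 2 (0.0210). Adjusted p rose past the threshold without vostok replicate 1 (0.0888), 2 (0.09996) or 3 (0.0834), and without control replicate 1 (0.0635), 3 (0.0807) or 4 (0.0602). The span of esc overlaps Pde1c, and no source used here gives the strand setting of the counting, so its reads may include some of that gene's.

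The enzyme E(z), which methylates H3 lysine 27, was at 73.9, 73.5, 73.4 and 71.8 CPM in vostok, against 70.6, 76.0, 67.4 and 70.9 CPM in control libraries. Its groups overlapped (means 73.1 ± 0.928 CPM in vostok and 71.2 ± 3.59 CPM in control libraries), and the 95% interval of its log2 fold change ran from -0.07 to 0.15 (adjusted p = 0.543). Su(z)12, the zinc finger subunit that E(z) needs for activity, was at 117 ± 6.05 CPM in vostok and 106 ± 6.41 CPM in control libraries (0.15 ± 0.06, adjusted p = 0.0989). Caf1-55, a histone-binding WD40 protein shared with other complexes, was at 264 ± 10.6 CPM in vostok and 284 ± 15.8 CPM in control libraries (-0.11 ± 0.06, adjusted p = 0.192). The accessory subunits mark alternative forms of PRC2. Pcl was at 152 ± 5.69 CPM in vostok and 145 ± 5.77 CPM in control libraries (0.07 ± 0.05, adjusted p = 0.290). Jarid2 was at 214 ± 16.1 CPM in vostok and 186 ± 29.6 CPM in control libraries (0.20 ± 0.12, adjusted p = 0.219). The summed PRC2 level overlapped between groups, at 804 to 880 CPM in vostok and 773 to 837 CPM in control libraries.

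Of the 4 recruiters and linkers 0 were called by edgeR or DESeq2, which called 28.3% and 40.4% of all genes tested. Among these 4, 1 had an unadjusted p below 0.05 and the median was 0.07. pho, the zinc finger DNA-binding protein related to mammalian YY1, was at 120.1, 119.9, 120.1 and 114 CPM in vostok, against 119, 109.8, 113 and 121 CPM in control libraries (means 119 ± 3.13 CPM in vostok and 116 ± 5.12 CPM in control libraries, log2 fold change 0.03 ± 0.05, adjusted p = 0.603). Its relative phol was at 122, 119.5, 118.8 and 126 CPM in vostok, against 98.5, 119.6, 105.0 and 112 CPM in control libraries (means 122 ± 3.41 CPM in vostok and 109 ± 9.12 CPM in control libraries, log2 fold change 0.16 ± 0.07, adjusted p = 0.0957). The groups overlapped for both, for phol through control replicate 2 only. Sfmbt, the MBT-domain partner of Pho in PhoRC, was at 158 ± 9.05 CPM in vostok and 151 ± 8.58 CPM in control libraries (0.07 ± 0.06, adjusted p = 0.423). Scm, an MBT and SAM domain protein that links the complexes, was at 96.1 ± 5.66 CPM in vostok and 91.5 ± 5.18 CPM in control libraries (0.07 ± 0.06, adjusted p = 0.385).

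**Figure D2:**
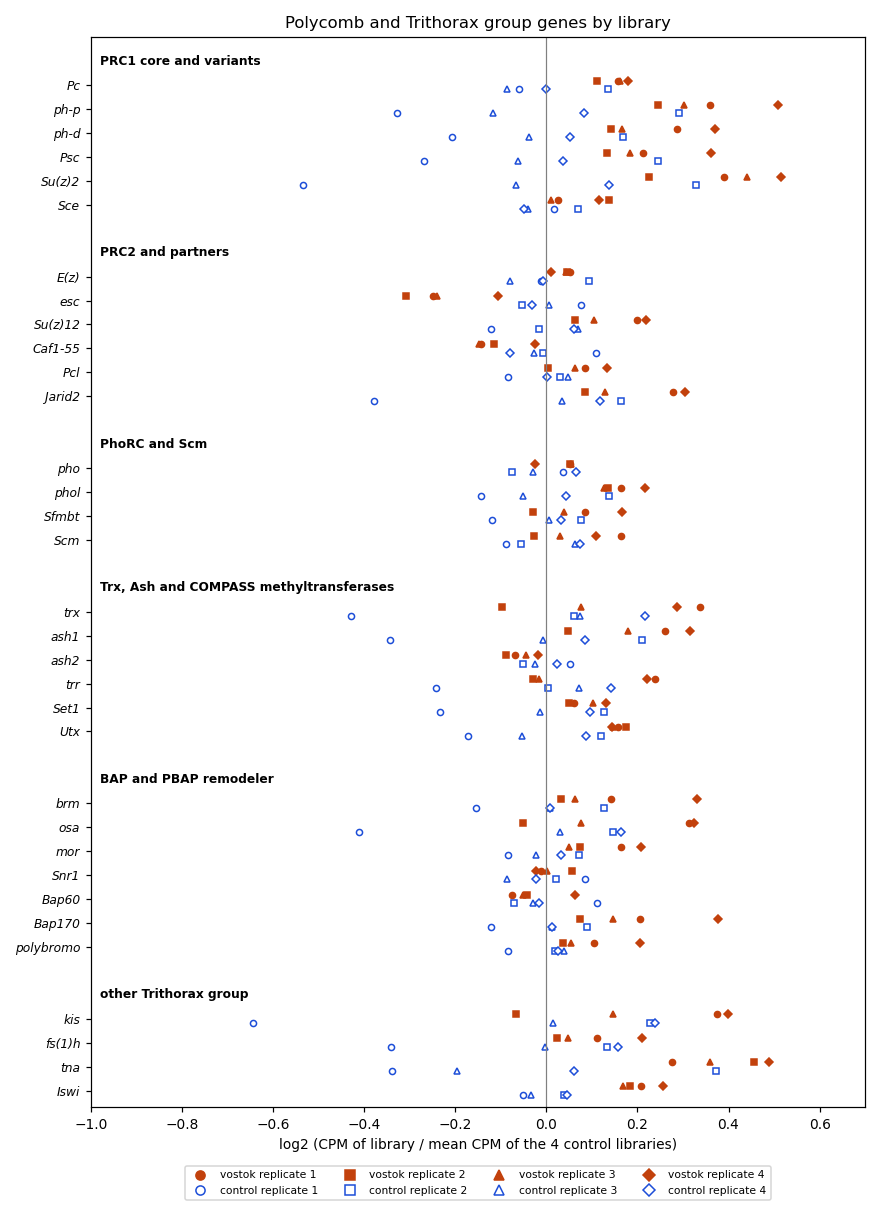
Level of each member in each library, as log2 of its CPM over the mean of the 4 control libraries, with filled symbols for vostok and open symbols for control and one symbol shape per replicate number. Control replicate 1 (open circles) is the lowest of the 8 libraries for 24 of 33 members and vostok replicate 4 (filled diamonds) the highest for 21.

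Of the 6 histone-modifying Trithorax group members 0 passed with edgeR or DESeq2, against 28.3% and 40.4% of all genes tested. None of the 6 had an unadjusted p below 0.05. trx, which methylates H3 lysine 4, was at 320.5, 237, 267 and 309.5 CPM in vostok, against 188, 265, 267 and 295 CPM in control libraries. The groups overlapped widely, since vostok replicate 2 lay below 3 control libraries (means 284 ± 38.5 CPM in vostok and 254 ± 45.6 CPM in control libraries, log2 fold change 0.16 ± 0.15, adjusted p = 0.424). ash1, an H3 lysine 36 methyltransferase, was at 106 ± 8.41 CPM in vostok and 91.9 ± 14.3 CPM in control libraries (0.20 ± 0.12, adjusted p = 0.205). ash2, a subunit shared by the COMPASS-type H3 lysine 4 methyltransferases, was at 64.0 ± 1.36 CPM in vostok and 66.5 ± 2.12 CPM in control libraries (-0.06 ± 0.04, adjusted p = 0.328). Both catalytic relatives of trx overlapped between groups as well. trr, the enzyme of the form that acts at enhancers, was at 112 ± 11.2 CPM in vostok and 104 ± 11.5 CPM in control libraries (0.11 ± 0.10, adjusted p = 0.413). Set1, the main enzyme of H3 lysine 4 trimethylation, was at 134 ± 3.52 CPM in vostok and 126 ± 13.7 CPM in control libraries (0.09 ± 0.08, adjusted p = 0.418). Utx, the demethylase that removes the PRC2 mark, was at 153 ± 1.496 CPM in vostok and 138 ± 12.7 CPM in control libraries, with separate groups but no call (0.16 ± 0.07, adjusted p = 0.118).

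The Brahma remodeler takes 2 forms, BAP with Osa and PBAP with Bap170 and Polybromo. With edgeR 0 of its 7 members passed, against 28.3% of all tested genes. Bap170 passed with DESeq2, which called 40.4% of all genes, and was the 1 with an unadjusted p below 0.05. The ATPase brm was at 493, 457, 467 and 563 CPM in vostok, against 402, 488, 450.0 and 449.6 CPM in control libraries (means 495 ± 47.6 CPM in vostok and 447 ± 35.3 CPM in control libraries, log2 fold change 0.15 ± 0.09, adjusted p = 0.221). The groups overlapped through control replicate 2. osa was at 806, 626, 684 and 812 CPM in vostok, against 488, 718, 662 and 727 CPM in control libraries (means 732 ± 92.02 CPM in vostok and 649 ± 111 CPM in control libraries, log2 fold change 0.17 ± 0.14, adjusted p = 0.364). polybromo was at 157, 149.6, 151 and 168 CPM in vostok, against 138, 148, 149.8 and 148 CPM in control libraries (means 157 ± 8.35 CPM in vostok and 146 ± 5.62 CPM in control libraries, log2 fold change 0.10 ± 0.06, adjusted p = 0.184). Neither signature subunit separated the groups. Bap170 was at 181 ± 16.5 CPM in vostok and 157 ± 9.45 CPM in control libraries (0.20 ± 0.08, adjusted p = 0.0799). The core subunit mor was at 506 ± 26.3 CPM in vostok and 464 ± 21.8 CPM in control libraries (0.13 ± 0.06, adjusted p = 0.146). Snr1 and Bap60, the other core subunits listed, lay closest to 0. Snr1 was at 124 ± 3.04 CPM in vostok and 123 ± 6.17 CPM in control libraries, with an interval of -0.11 to 0.12. Bap60 was at 253 ± 11 CPM in vostok and 258 ± 14.3 CPM in control libraries, with an interval of -0.17 to 0.11.

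Of the 4 remaining Trithorax group members, 1 rose (25.0%, against 12.1% of all tested genes higher and 28.3% called either way). Iswi (FBgn0011604, 2R, 12636671 to 12640628) was at 380.0, 373.9, 370.0 and 393 CPM in vostok, against 318, 338, 321 and 339.6 CPM in control libraries. Every vostok library was above every control library, with means of 379 ± 10.2 and 329 ± 11.1 CPM (log2 fold change 0.20 ± 0.05, adjusted p = 0.0231). The call was kept without control replicate 1 (0.0342), 2 (0.0175) or 4 (0.0367). Adjusted p passed 0.05 without vostok replicate 1 (0.0528), 2 (0.0567), 3 (0.0590) or 4 (0.0584) and without control replicate 3 (0.0653). With control replicates 1 and 3 both left out, Iswi was at a log2 fold change of 0.16 (adjusted p = 0.0595) and esc at -0.18 (adjusted p = 0.140).

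The other members of that group varied widely among control libraries. kis, a chromodomain helicase related to mammalian CHD7, was at 1371 ± 201 CPM in vostok and 1173 ± 296 CPM in control libraries (0.22 ± 0.20, adjusted p = 0.399). fs(1)h, the BET bromodomain protein, was at 889 ± 52.3 CPM in vostok and 830.3 ± 124 CPM in control libraries (0.10 ± 0.11, adjusted p = 0.503). tna, a SUMO ligase relative that interacts with the Brahma complex, was at 1087 ± 72.2 CPM in vostok and 825 ± 183 CPM in control libraries (0.40 ± 0.15, adjusted p = 0.0773). The control coefficient of variation was 25.3% for kis and 22.2% for tna, against a median of 7.04% over members. Without control replicate 1 the log2 fold change was 0.06 for kis, 0.30 for tna and -0.0023 for fs(1)h. The same omission gave 0.04 for trx, 0.06 for osa, 0.09 for Jarid2, 0.10 for ash1, 0.03 for trr and 0.01 for Set1, and 0.14 for Psc and 0.25 for Su(z)2. Each of these values was thus smaller in size without that 1 library. Those of tna, Psc and Su(z)2 kept most of their size, and without control replicate 2 they were 0.54, 0.31 and 0.52.

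The number of calls turned on control replicate 2. Without it 10 of 33 members passed (30.3%, against 48.5% of all genes tested there): esc was lower, and Iswi, Pc, ph-p, ph-d, Psc, Su(z)2, phol, Utx and tna were higher. The PRC1 genes then had log2 fold changes of 0.46 for ph-p (adjusted p = 0.0125), 0.52 for Su(z)2 (0.0256) and 0.20 for Pc (0.0128). Without vostok replicate 1, 2 or 3, or without control replicate 3, 0 members passed. DESeq2 called 8 members (24.2%, against 40.4% of all genes it tested), namely esc lower and Iswi, ph-p, ph-d, Pc, Su(z)12, Bap170 and tna higher. In every one of these counts the share of members called stayed below the share of all genes.

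The RNA balance of related genes was compared between groups through 4 log2 ratios of CPM. Each ratio also depends on transcript lengths, so only its difference between groups is read. The exact two-sided permutation test used cannot go below p = 0.0286 for 4 against 4 libraries. None passed after adjustment over the 4 pairs. The ratio of ph-p to ph-d was 1.14, 1.17, 1.205 and 1.21 in vostok, against 0.95, 1.19, 0.99 and 1.101 in control libraries (difference 0.12, exact permutation p = 0.0857, adjusted 0.171). The ratio of Psc to Su(z)2 was 1.06, 1.15, 0.99 and 1.09 in vostok, against 1.51, 1.16, 1.25 and 1.14 in control libraries (difference -0.19, exact permutation p = 0.0571, adjusted 0.171). Its largest value was that of control replicate 1. The ratio of pho to phol averaged -0.04 ± 0.08 in vostok and 0.09 ± 0.16 in control libraries (difference -0.13, exact permutation p = 0.229, adjusted 0.305). The ratio of osa, of the BAP form, to polybromo, of the PBAP form, averaged 2.22 ± 0.13 in vostok and 2.14 ± 0.22 in control libraries (difference 0.08, exact permutation p = 0.6). The difference was -0.02 without control replicate 1.

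**Figure D3:**
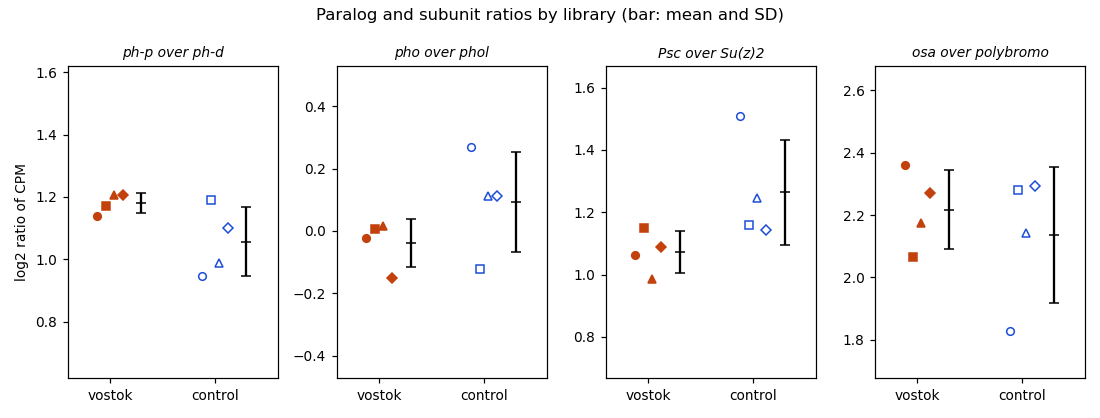
Log2 ratio of CPM within 4 pairs of related members in each library (filled symbols, vostok; open symbols, control; one shape per replicate number), with the mean and SD of each group as a bar; each panel spans the same height. Control replicate 1 (open circles) gives an extreme value in every panel, such as 1.51 for Psc over Su(z)2.

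Members differed among themselves along the length of the gene, a relation noticed after the data were seen. Over the 33 members the span of the annotated gene, introns included, and the log2 fold change had a Spearman rho of 0.65. The 11 shortest genes (1599 to 4565 bases) had a median log2 fold change of 0.04, the 11 in the middle 0.13 and the 11 longest (9493 to 40969 bases) 0.20. The same rho was 0.35 over 7090 tested genes of at least 10 CPM and 0.14 over 10547 tested genes with a position. Control replicate 1 varied along the same axis: its log2 difference from the other 3 control libraries had a rho of -0.83 with span over members and -0.60 over tested genes of at least 10 CPM, with medians of 0.02, -0.16 and -0.44 in the short, middle and long members. Control replicate 2 went the other way, with a rho of 0.65 over members and 0.38 over tested genes of at least 10 CPM. Without control replicate 1 the rho of span and log2 fold change over members was 0.36, and with control replicates 1 and 3 left out it was 0.23. These points share the same 8 libraries and are genes, not replicates, so the values are descriptions, with no test. Signs of RNA makeup also differed: mitochondrially encoded RNA took 2.65% to 3.26% of counts in vostok and 3.27% to 4.87% in control libraries, highest in control replicate 1. Ribosomal RNA took 0.802% to 8.16% in vostok, highest in vostok replicate 3, and 0.904% to 2.86% in control libraries. With both left out of the counts, the median over members was 0.16 and the same 2 members, Iswi and esc, were called. The part of RNA quality in the span relation was not tested.

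**Figure D4:**
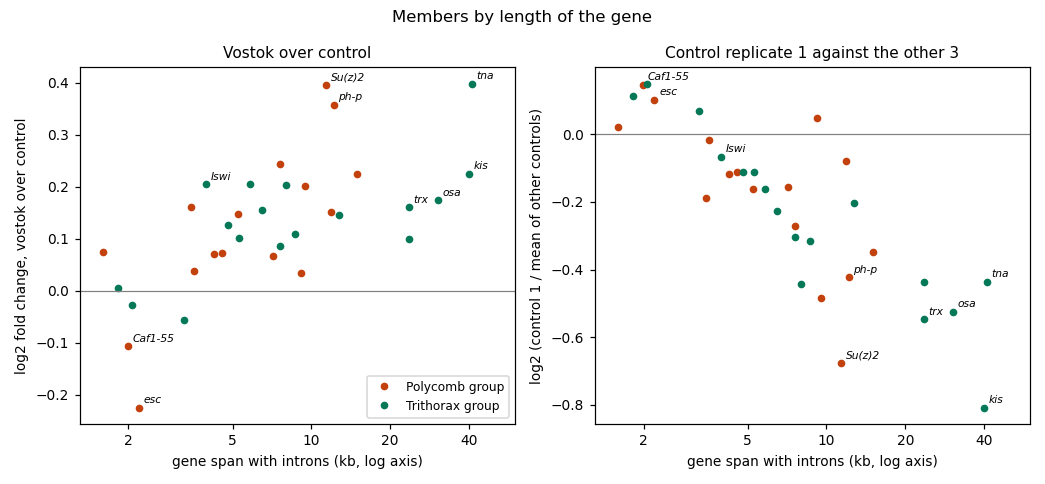
Gene span with introns (kb, log axis) against the log2 fold change of vostok over control (left) and against the log2 difference of control replicate 1 from the mean of the other 3 control libraries (right); each point is 1 of the 33 members. Longer genes lie higher on the left (rho 0.65) and lower on the right (rho -0.83), where kis is the lowest point.

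Marker lists of cell types also varied between libraries, and their calls stand against 28.3% of all tested genes (12.1% higher and 16.2% lower). In bulk RNA, fewer cells of a type and less RNA per cell cannot be told apart. The 13 neuronal markers summed to 3949 to 4767 CPM in vostok and 2185 to 4777 CPM in control libraries, lowest in control replicates 1 and 3; 0 of 13 passed (1 at an unadjusted p below 0.05), with a median log2 fold change of 0.37. The 11 neuroblast markers summed to 10142 to 11124 CPM in vostok and 4810 to 9712 CPM in control libraries, and 2 rose and 1 fell, with a median log2 fold change of 0.19. The calls were tll (0.61, adjusted p = 0.00302) and mira (0.29, 0.0416), both higher, and numb (-0.35, 0.0246), lower. Of the 11 log2 fold changes 9 were above 0. The sum was mostly pros (7616 ± 419 CPM in vostok and 5047 ± 1933 CPM in control libraries, adjusted p = 0.113) and brat (2291 ± 31.3 CPM in vostok and 1591 ± 454 CPM in control libraries, adjusted p = 0.0677), neither of which passed. Among the uncalled markers, dpn was at 41.7 ± 3.77 CPM in vostok and 41.0 ± 0.915 CPM in control libraries. The 16 cell cycle markers summed to 1859 to 2129 CPM in vostok and 2017 to 2547 CPM in control libraries, with 3 lower (18.8%) and a median of -0.26. The 10 glial markers summed to 1133 to 1215 CPM in vostok and 1158 to 1477 CPM in control libraries, with 2 lower (20%). The 12 hemocyte markers summed to 224 to 1055 CPM in vostok and 425 to 9287 CPM in control libraries, with 3 lower (25.0%).

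Control replicate 2, the control library nearest to vostok in the PRC1 genes, had the highest neuronal and the lowest hemocyte sum of the control libraries. Lists of tissues outside the brain were read in the same way. The 10 imaginal disc markers summed to 782 to 854 CPM in vostok and 749 to 803 CPM in control libraries, with 4 lower (40%). That sum was mostly sd, dac, ap and rn, none of which passed. The 6 ring gland markers summed to 397 to 802 CPM in vostok and 201 to 524 CPM in control libraries, with 3 higher (50%), namely nvd, Akh and dib. Their sum was mostly phm (390 ± 125 CPM in vostok and 228 ± 82.6 CPM in control libraries), which did not pass (adjusted p = 0.117). sad and sro went the other way, both at -0.73, without a call. The 6 fat body markers summed to 60.5 to 344 CPM in vostok and 32.0 to 221 CPM in control libraries and the 6 muscle markers to 38.2 to 126 CPM in vostok and 69.99 to 226 CPM in control libraries, with 0 called in either list and 1 in each at an unadjusted p below 0.05. No marker of any list was at 0 in any library. The part of these lists in the members' values was not tested.

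**Figure D5:**
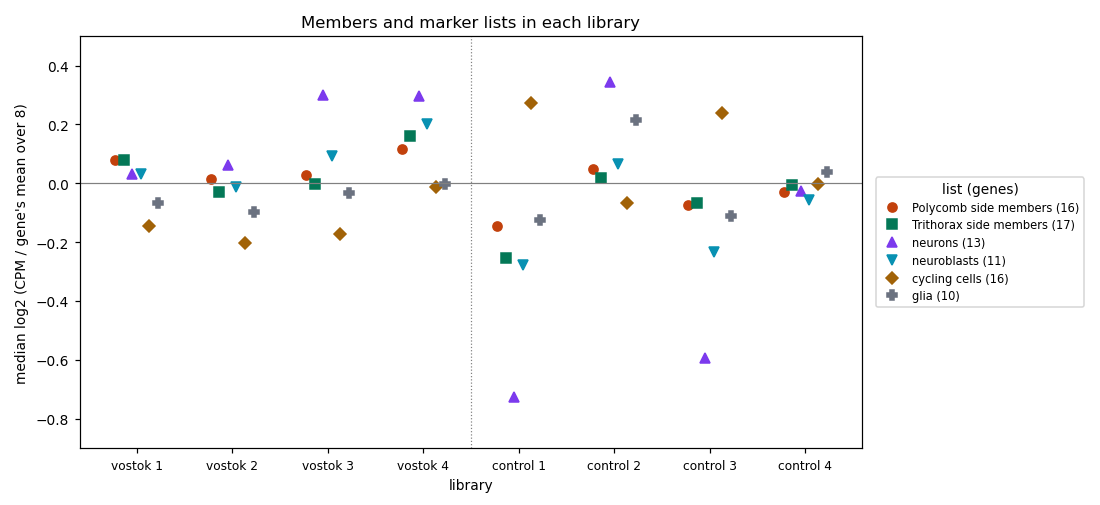
Median over each list of the log2 of CPM over a gene's mean in all 8 libraries, for Polycomb and Trithorax side members and for 4 marker lists, vostok libraries on the left. The members are lowest in control replicate 1 (-0.15 and -0.25). Neuronal (-0.73), neuroblast (-0.28) and glial (-0.13) markers are also lowest there, and cycling cell markers highest (0.27). The members are highest in vostok replicate 4 (0.12 and 0.16), as are neuroblast markers (0.20). Neuronal (0.34) and glial (0.22) markers are highest in control replicate 2.

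The wider pathway was read from lists of known partners. Of 23 other genes of the Polycomb side, including recruiters and accessory subunits, 5 rose (21.7%, against 12.1% of all tested genes higher and 28.3% called either way), 0 fell and the median log2 fold change was 0.10. crm, a SANT domain protein, was at 58.6 ± 0.436 CPM in vostok and 50.4 ± 2.54 CPM in control libraries (0.22 ± 0.05, adjusted p = 0.0147), and only the omission of vostok replicate 3 ended the call among single libraries (0.0511). calypso, the deubiquitylase that removes the PRC1 mark from H2A, was at 43.4 ± 0.371 CPM in vostok and 37.99 ± 2.05 CPM in control libraries (0.19 ± 0.05, adjusted p = 0.0265). z, a DNA-binding protein of Polycomb response elements, was at 119 ± 2.30 CPM in vostok and 106 ± 4.57 CPM in control libraries (0.17 ± 0.05, adjusted p = 0.0316). Each of these genes had separate groups.

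RYBP, the Sce partner of variant PRC1, was at 73.4 ± 2.16 CPM in vostok and 62.6 ± 5.02 CPM in control libraries (0.23 ± 0.06, adjusted p = 0.0326). Dsp1, an HMG box protein that helps recruitment, was at 458 ± 5.36 CPM in vostok and 405 ± 18.4 CPM in control libraries (0.18 ± 0.05, adjusted p = 0.0390). These calls rested on single libraries. That of calypso was kept without control replicate 1 or 2 and lost without any other library (adjusted p up to 0.0832, without vostok replicate 3). Those of z and RYBP were kept without control replicate 2 or 4 and lost without any other library (up to 0.0836, without control replicate 3, and 0.0998, without vostok replicate 3). Dsp1 was called without control replicate 4 (0.0298) and not without any of the other 7 libraries (up to 0.0954, without vostok replicate 3). Trl, which encodes GAGA factor, was at 301 ± 19.0 CPM in vostok and 267 ± 15.9 CPM in control libraries and did not pass (0.18 ± 0.07, adjusted p = 0.0839).

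Of 31 other genes of the Trithorax side 0 rose and 2 fell (6.45%, against 16.2% of all tested genes lower and 28.3% called either way), with a median of 0.05. Chrac-16, a histone-fold subunit of the CHRAC remodeler that contains Iswi, was at 31.5, 33.9, 34.4 and 34.8 CPM in vostok, against 61.4, 42.4, 52.2 and 51.3 CPM in control libraries (-0.62 ± 0.10, adjusted p = 0.00490). Its groups did not overlap, and it was called in all 18 alternative settings, with log2 fold changes of -0.71 to -0.48. Pa1, a subunit of the Trr methyltransferase complex, was at 55.6 ± 3.94 CPM in vostok and 67.5 ± 4.95 CPM in control libraries (-0.28 ± 0.07, adjusted p = 0.0271). It was not called without vostok replicate 1 (0.0705) or 2 (0.0847) and without control replicate 1 (0.0513) or 3 (0.0726). The 54 genes of both lists together had 7 calls, 13.0% of them, against 28.3% of all tested genes. With control replicates 1 and 3 left out, crm and Chrac-16 were the only ones of the 54 called.

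Of 21 well known Polycomb target genes 1 rose and 5 fell, 28.6% in all and close to the share of all tested genes. The Hox gene abd-A was at 97.1, 87.8, 102.7 and 81.7 CPM in vostok, against 42.5, 52.3, 39.2 and 51.1 CPM in control libraries (1.00 ± 0.11, adjusted p = 0.000871). The groups did not overlap, and abd-A was called in all 18 alternative settings, with log2 fold changes of 0.84 to 1.06. The secreted signals hh and wg were lower. hh was at 7.92 ± 1.12 CPM in vostok and 19.9 ± 8.002 CPM in control libraries (-1.33 ± 0.30, adjusted p = 0.0175), and wg at 7.90 ± 0.409 CPM in vostok and 16.8 ± 6.29 CPM in control libraries (-1.09 ± 0.27, adjusted p = 0.0245). So were the neighbouring Pax genes eyg, at 4.599 ± 2.28 CPM in vostok and 16.9 ± 6.49 CPM in control libraries (-1.88 ± 0.41, adjusted p = 0.0148), and toe, at 3.84 ± 2.26 CPM in vostok and 11.1 ± 4.21 CPM in control libraries (-1.53 ± 0.46, adjusted p = 0.0406).

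The Hox gene lab was at 1.47 ± 0.259 CPM in vostok and 2.37 ± 0.396 CPM in control libraries (-0.70 ± 0.20, adjusted p = 0.0370). Calls of the lower targets were lost with single libraries, other than that of eyg: hh was not called without vostok replicate 2 (0.0549) or 3 (0.0533), wg was called only without control replicate 2 or 4 (up to 0.0679, without vostok replicate 3), and lab and toe only without vostok replicate 1 or control replicate 2 (up to 0.103 and 0.101, without vostok replicate 2). With control replicates 1 and 3 left out, eyg was at -1.47 (adjusted p = 0.0893), hh at -0.77 (0.0759) and wg at -0.60 (0.120), and abd-A was the only target called. Of the 10 imaginal disc markers, ss, Doc1, Doc2 and Doc3 were called lower with all 8 libraries (40%, against 16.2% of all tested genes lower). The log2 fold change was above 0 for 5 of the 10 and highest for ap, at 0.57. Doc1, Doc2 and Doc3 were at low levels, with control means of 2.89, 2.15 and 2.71 CPM. The part of disc RNA in the values of the targets was not tested.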

How the data were processed

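Whole brains of larvae of the third instar were profiled in 4 vostok and 4 control RNA-seq libraries made, per the labels' protocols, with a directional kit. The authors deposited 1 table of estimated counts by gene, unscaled, whose name gives salmon and whose values are fractional. The submitters' processing notes name BWA and dm6, without the assay each served. No source used here gives the salmon version, the annotation release or the strand setting. The spans of 15 of the 33 members overlap another annotated gene.

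Estimated counts of the 17895 gene rows (99.3% to 99.5% of counts) were rounded, filtered with filterByExpr at its defaults and normalised with TMM. Genotype was the single term of the robust quasi-likelihood F test (edgeR 4.0.16, R 4.3.3). The other 6383 of 24278 rows (transposable elements and other entries) were left out. The script was tested on simulated counts. Gene positions came from RefSeq Release 6, the assembly dm6 names. Reads carry no molecular identifiers, so the floor of 3 counts covers counting error only.

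The members, gene lists and tests were chosen with earlier results of these data known. Each member is given at least its group means, and values per library were given for called members, Pc, E(z), trx, brm and the 4 ratio pairs. Of other pathway genes up to 10 called genes by smallest p and Trl were named, and of targets up to 6. The gene escl was added beside esc. Of the listed names, 2 stand in the table under newer symbols (Bap111 and Kdm5). Alternatives were other scaling factors (RLE, upper quartile, totals alone), other count filters (none, stricter), DESeq2 1.42.0, voom with quality weights (limma 3.58.1), a replicate block, ribosomal and mitochondrial RNA left out, each library left out, control replicates 1 and 3 left out, and an adjusted p below 0.01. The relation with gene span was added after the data were seen. Figures were drawn with matplotlib 3.10.9. Promoter and protein sequences and exon lengths were not used here.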

Additional observations from a re-analysis of the deposited data

Results flagged for a closer look

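In groups of 4, a library was marked when its gap to the nearest other library exceeded the share of the group's range that Dixon's 95% critical value allows. Of 104 groups examined (33 members, 15 of the other named genes and 4 ratios, in vostok and in control), 3 were marked, while chance marks about 1 in 20. pho was at 113.8 CPM in vostok replicate 4, against 119.9 to 120.1 CPM in the other 3 vostok libraries. polybromo was at 137.5 CPM in control replicate 1, against 147.7 to 149.8 CPM in the other 3 control libraries. Dsp1 was at 432.1 CPM in control replicate 4, against 393.0 to 397.3 CPM in the other 3 control libraries.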

How the results depend on the processing

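Over 18 alternative settings the 33 members gave 594 values, of which 548 kept their direction and their side of the threshold, 17 passed it newly, 18 no longer passed it and 11, in 6 members, changed sign. The values that changed sign were all near 0. With control replicates 1 and 3 left out they were -0.0069 for E(z), -0.0256 for Set1, -0.0089 for kis, -0.0466 for fs(1)h and 0.0175 for Bap60. Snr1 was at -0.014 without a count filter. Leaving out single libraries gave -0.0155 to 0.0312 for Snr1, -0.054 to 0.009 for Bap60 and -0.0023 to 0.1641 for fs(1)h.

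Counts of calls moved more. Genes called numbered 1521 to 5333 with single libraries left out, 1593 with control replicates 1 and 3 left out and 1057 at an adjusted p below 0.01. Members called higher were 0 to 9 with single libraries left out, 7 with DESeq2, 4 with voom, and 0 without a count filter, with control replicates 1 and 3 left out and at 0.01. Members called lower were 0 to 1 with single libraries left out, and 0 with upper quartile factors, with library totals only, with control replicates 1 and 3 left out and at 0.01. Other pathway genes called were 2 to 12 with single libraries left out, 12 with DESeq2, 11 with voom, 3 without a count filter, 2 with control replicates 1 and 3 left out and 1 at 0.01. Known targets called were 2 to 13 with single libraries left out, 10 with DESeq2, 10 with voom, 1 with control replicates 1 and 3 left out and 1 at 0.01. Among single omissions the highest counts, 9 members higher, 12 other pathway genes and 13 targets, came without control replicate 2. There 48.5% of all genes were called. Of all genes tested in each setting, 40.4% were called with DESeq2, 38.9% with voom and 19.4% without a count filter. The share was 26.1% with upper quartile factors, 23.7% with library totals only and 14.2% with control replicates 1 and 3 left out. The difference of log2 ratios for osa over polybromo was -0.0212 to 0.134 with single libraries left out. The cause of these shifts was not tested. The span relation over members had a rho of 0.39 with voom.

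With the replicate block, 1564 genes (14.6% of those tested), 0 members higher, 0 members lower, 1 other pathway gene and 2 targets were called. The numbers are not stated to pair libraries, and deviations of same-numbered libraries correlated at 0.18, 0.0071, 0.0388 and -0.0473. vostok replicate 1 correlated best with control replicate 3 (0.31). These values cannot show whether same-numbered libraries shared a day or batch, and the labels do not say.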
